A study of Mus musculus with 53 samples.

Results

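The comparison set 3 Nnat+/-p males fed a 45% high fat diet (HFD; replicates 29, 30 and 31) against 4 obese Nnat+/-p males fed chow (replicates 16, 17, 20 and 21), so that genotype was shared, body weight was similar and diet differed. These 7 libraries were taken by their labels out of 53 in the series, and each holds RNA of the laser-captured paraventricular nucleus (PVN) of 1 C57BL/6 male of 13 to 14 weeks. Nnat+/-p mice carry a null allele of Nnat inherited from the father, in which lacZ is inserted and exons 2 and 3 are deleted. For the effect of HFD in wild type, 6 Nnat+/+ males on HFD (replicates 23 to 28) were set against 3 Nnat+/+ males on chow (replicates 13, 14 and 15). A further 3 non-obese Nnat+/-p males on chow (replicates 18, 19 and 22) shared the fit. The HFD mice were moved to this diet when young and formed a cohort of their own, so diet and cohort cannot be told apart. The fat content is that of the labels and was not reconciled with the product code in the study's methods.

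The PVN is a hypothalamic nucleus in which neuroendocrine neurons make vasopressin, oxytocin, CRH and TRH, and other neurons receive leptin, melanocortin and GLP-1 signals that restrain feeding. Nnat encodes neuronatin, a small membrane proteolipid of the endoplasmic reticulum, and is imprinted so that the paternal copy is the one expressed. The question here is how the PVN differs between Nnat+/-p mice of similar weight raised on HFD and on chow.

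Body weight was 43.1, 43.9 and 38.2 g on HFD, and 38.8, 46.5, 41.66 and 41.17 g in the obese mice on chow. The means of 41.7 ± 3.09 g (SD, n = 3) and 42.0 ± 3.23 g (SD, n = 4) did not differ beyond that spread (exact two-sided permutation test, p = 0.914). The weights of replicates 30 (43.9 g) and 24 (wild type, 42.9 g) stand exchanged between the genotypes in the labels of the arcuate nucleus samples, so both are uncertain. Wild types on chow weighed 31.4 to 33.5 g, so the wild-type comparison sets HFD against lean mice. Depth did differ: the HFD libraries held 6667729 to 7834090 counts and the obese chow libraries 3477384 to 5041309, with no overlap (exact permutation test, p = 0.0286, the smallest that 3 against 4 allows). Levels are given below as CPM (counts scaled to a fixed library size after TMM), in the replicate order above, and folds as log2 values ± SE.

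Nnat itself stood at 5.16, 4.02 and 1.21 CPM on HFD and 5.27, 2.38, 15.4 and 5.28 CPM in obese chow, against 364 to 506 CPM in the 9 wild types, so that every library matched its labelled genotype. The 2 Nnat+/-p groups overlapped (exact permutation test of the mean CPM, p = 0.4), and the log2 fold change of -0.95 ± 0.40 was not called (edgeR quasi-likelihood test, Benjamini-Hochberg adjusted p = 0.591). Blcap, whose span contains Nnat on the opposite strand, was at 73.2, 74.1 and 111 CPM on HFD and 79.0, 76.5, 66.7 and 67.8 CPM in obese chow, again without a call (adjusted p = 0.896). All 7 captures carried the PVN markers. Sim1, the transcription factor that specifies this nucleus, measured 129.9, 161 and 125 CPM on HFD and 187, 104, 114 and 134 CPM in obese chow. Avp lay between 179 and 469 CPM and Oxt between 220 and 988 CPM in these libraries. In contrast, replicates 15 (wild type, chow) and 24 (wild type, HFD) of the reference comparison held Avp at 0.182 and 0.937 CPM. Markers of neighbouring regions were also counted in the 7 captures. Of 14 tested, edgeR called 0, with 8 positive and 6 negative folds. In counts not scaled for depth, Pmch had 8, 10 and 24 on HFD and 0, 0, 0 and 3 in obese chow. Nrgn had 105, 65 and 344 on HFD and 39, 122, 47 and 47 in obese chow. As tissue pieces were sequenced, fewer cells of a type and less RNA per cell cannot be told apart.

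Of 17576 genes tested, 46 (0.262%) were called at an adjusted p under 0.25, the threshold of the study, with 5 (0.0284%) higher and 41 (0.233%) lower on HFD. None passed an adjusted p of 0.05, and 1323 genes (7.53%) had an unadjusted p under 0.05. DESeq2 was run on 38480 genes without the low-count filter used here, and its own filtering left 20199 of them without an adjusted p. It called 422 and included all 46, while edgeR without the low-count filter called 258. The higher genes included Gabra2 and Emc8, both well counted in every library, whereas most of the lower genes, such as Alx4 and Dsg1a, had few counts on HFD. Each of the 46 kept its direction in all of the 18 alternative fits that held it. The count itself rested on single libraries: it was 0 without replicate 20, 29 or 30, 1 without replicate 31 or without replicates 24 and 30 together, 26 without replicate 21, 82 without the wild type replicate 15 and 130 without replicate 16.

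Gabra2 encodes the alpha-2 subunit of the GABA-A receptor, the channel of fast inhibition. It was at 123, 136 and 141 CPM on HFD and 20.9, 64.6, 70.0 and 72.3 CPM in obese chow. Each HFD library exceeded each obese library, and replicate 16 was far below the others of its group. The difference was 1.23 ± 0.27 on the log2 scale, or 2.34-fold (adjusted p = 0.144), and 0.95 without replicate 16 (adjusted p = 0.0850). In mice outside the comparison, Gabra2 measured 89.0, 82.1 and 112 CPM in non-obese Nnat+/-p, 163, 93.6 and 92.4 CPM in wild type on chow and 107 to 161 CPM in wild type on HFD. The obese chow group was thus the lowest of the 5 groups, with each of its values under every value of the other 4.

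Emc8, a subunit of the complex that inserts membrane proteins into the endoplasmic reticulum, was also higher on HFD. Its values were 33.1, 32.3 and 38.8 CPM on HFD and 14.6, 14.1, 11.8 and 24.2 CPM in obese chow, a log2 difference of 1.10 ± 0.28 (adjusted p = 0.217). Wild types held 37.9, 37.1 and 36.7 CPM on chow and 27.0 to 37.7 CPM on HFD. The obese chow values lay below all wild types, while 1 of the non-obese Nnat+/-p mice (48.1, 33.1 and 20.9 CPM) lay within the obese range. Emc8 shares its locus with the opposite-strand gene Cox4i1, and the strand setting of the counting is not given in the sources used here. On either strand, another gene overlaps 22 of the 46 called genes, among them Alx4, Sardh, C2, Cmya5 and Fam186a.

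Snord17, a small nucleolar RNA within Snx5, was at 24.6, 21.7 and 37.4 CPM on HFD and 10.1, 2.57, 8.18 and 5.28 CPM in obese chow (log2 2.10 ± 0.54, adjusted p = 0.217). The unnamed gene 1110012L19Rik had 8.16, 5.02 and 9.12 CPM against 0.608, 0.550, 2.29 and 0.556 CPM (log2 2.93 ± 0.77, adjusted p = 0.242). Gm14168 was counted in every HFD library, at 2.15, 4.59 and 5.10 CPM, and had no count in the 4 obese chow libraries. Set against a floor of 3 counts over that group, it was at least 22.6-fold higher (adjusted p = 0.217). Next by p came Nudt11, an inositol pyrophosphate phosphatase, which was not called (18.2, 22.1 and 19.9 CPM against 2.03, 8.99, 6.87 and 9.45 CPM, adjusted p = 0.283). None of the 5 called genes overlapped between the groups, a state met by 3.77% of all tested genes in this direction. As the calls were made on the same libraries, this separation adds no support to them.

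**Figure D1:**
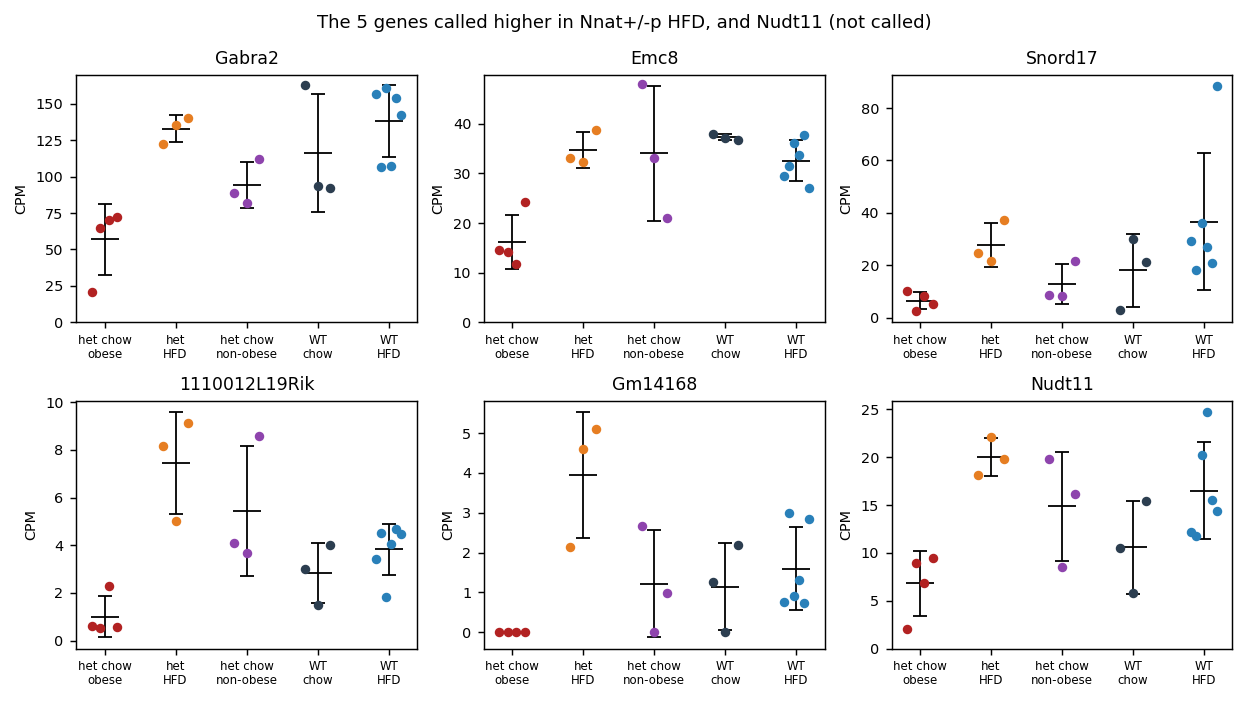
CPM of the 5 genes called higher on HFD and of Nudt11 (not called) in each male PVN library by group; het, Nnat+/-p; WT, Nnat+/+; dots, mice; bars, mean ± SD. For Gabra2, the 4 obese chow values (20.9 to 72.3 CPM) lie below every other library.

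The 41 lower genes had a median log2 fold change of -4.83, and of -4.62 with the 8 genes that had no count on HFD set to their bounds. Their median level was 0.501 CPM on HFD and 16.5 CPM in obese chow. In 19 of the 41 (46.3%) at least 1 HFD library had no count, against 15.3% of all tested genes. Protein-coding genes made up 73.2% of them and 84.7% of all, and 20 of 41 (48.8%) did not overlap between the groups, against 2.88% of all tested genes in this direction. This separation too was seen in the libraries that made the calls.

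The lower genes with the smallest p follow. Alx4, a homeobox factor of limb and skull mesenchyme, measured 0.143, 0.574 and 0.268 CPM on HFD and 4.46, 23.7, 61.2 and 21.7 CPM in obese chow (log2 -6.30 ± 1.19, adjusted p = 0.120). Dsg1a, a desmosomal cadherin of the epidermis, was at 1.72, 2.01 and 0.939 CPM and 0, 9.90, 94.6 and 75.9 CPM (log2 -4.83 ± 1.01, adjusted p = 0.120), with replicate 16 at 0 and so below the HFD mice. Cmya5, a protein of striated muscle, fell from 7.50, 21.6, 29.1 and 17.5 CPM to 1.58, 2.58 and 2.42 CPM (log2 -3.09 ± 0.75, adjusted p = 0.209). Amtn, which encodes the enamel protein amelotin, had 1 count among the 3 HFD libraries and 0, 2.38, 33.0 and 11.4 CPM in obese chow (adjusted p = 0.191).

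Sardh, the mitochondrial sarcosine dehydrogenase, was at 8.02, 3.73 and 2.68 CPM on HFD and 2.84, 87.1, 314 and 114 CPM in obese chow (log2 -4.74 ± 1.03, adjusted p = 0.144). Tgfb1, a cytokine, had 7.88, 2.30 and 6.44 CPM against 4.66, 40.0, 110.3 and 52.5 CPM (log2 -3.21 ± 0.76, adjusted p = 0.187). For both, replicate 16 lay within the HFD range and the remaining 3 obese mice lay above it. Complement C2 measured 1.15, 1.72 and 3.22 CPM and 2.84, 10.1, 47.4 and 28.1 CPM (log2 -3.41 ± 0.77, adjusted p = 0.144). Fam186a stood at 6.45, 4.31 and 9.80 CPM and 5.47, 70.4, 115 and 71.2 CPM (log2 -3.24 ± 0.68, adjusted p = 0.120). Fam83d, a protein of the mitotic spindle, was at 0.143, 0 and 2.68 CPM and 2.43, 23.3, 43.8 and 15.0 CPM (log2 -4.41 ± 1.05, adjusted p = 0.191). Il4, an interleukin named here after its values were seen, had no count on HFD and 0.203, 3.12, 11.5 and 9.45 CPM in obese chow. Pooled over mice, it was at least 36.3-fold lower on HFD.

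Receptors for odorants and pheromones, which neurons of the nose express, were also among them. Olfr411 had 0, 0.287 and 0.134 CPM on HFD and 0.405, 7.89, 39.9 and 9.45 CPM in obese chow (log2 -6.45 ± 1.48, adjusted p = 0.187), and Olfr285 had 0, 0.431 and 0 CPM and 0.405, 3.12, 22.9 and 7.78 CPM (log2 -5.69 ± 1.30, adjusted p = 0.157). With Vmn1r216 there were 3 such receptors among the 41, and 63 among all tested genes. Summed over all olfactory and vomeronasal receptor genes, the level was 56.3, 186 and 67.5 CPM on HFD and 183, 258, 925 and 379 CPM in obese chow. The summed level of the 41 lower genes ran the same way, at 129, 126 and 142 CPM on HFD and 231, 702, 2499 and 1136 CPM in obese chow. Replicate 20 was the highest obese library in 41 of the 41 genes (in 31.1% of all tested genes), and replicate 16 the lowest in 33 (in 40.6% of all).

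Libraries outside the comparison varied over a similar range. The 41 genes summed to 733, 2392 and 224 CPM in the non-obese Nnat+/-p mice, whose receptor sums were 419.7, 1106 and 144 CPM. Wild types on chow had sums of 1695, 649 and 488 CPM beside receptor sums of 959, 302 and 226 CPM. In each chow group the library with the fewest counts had the highest sum of the 41 genes. These were replicate 20 (obese, 3477384 counts), replicate 19 (non-obese, 2268021 counts) and replicate 13 (wild type, 3192351 counts). The order did not hold throughout, as replicate 16 (4476075 counts) had the lowest obese sum and replicate 17 (5041309 counts) was deeper. On HFD the wild types kept to 119.6 to 279.9 CPM and receptor sums of 51.7 to 224 CPM. With the log2 receptor sum as a covariate, chosen after seeing the data, edgeR called no gene, with 806 at an unadjusted p under 0.05. In that fit the median log2 fold change of the 41 lower genes went from -4.83 to -2.33, with Sardh at -1.52, Tgfb1 at -0.74 and Alx4 at -3.45. The higher genes Gabra2 and Emc8 were at 1.40 and 1.18. The receptor sum contains 3 of the 41 lower genes and averaged 103 CPM on HFD and 436 CPM in obese chow, so this covariate is not independent of them. The receptor sums of the 2 Nnat+/-p groups overlapped (exact permutation test, p = 0.143). The part of receptor signal, depth or cohort in the lower genes was not tested.

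**Figure D2:**
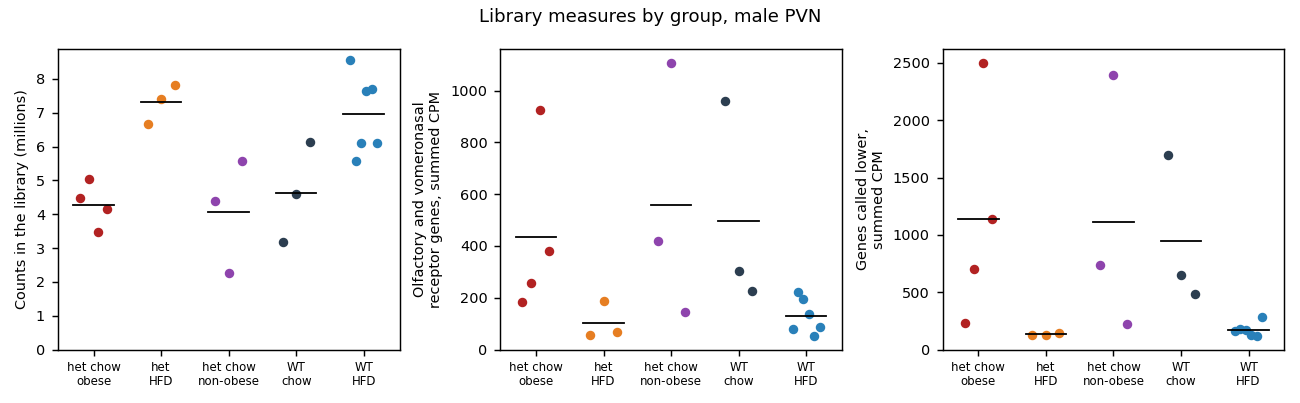
Total counts, summed CPM of olfactory and vomeronasal receptor genes and summed CPM of the 41 genes called lower, per male PVN library; dots, mice; lines, means. Nnat+/-p HFD libraries are deeper than all chow libraries (6667729 to 7834090 counts) and lie at 126 to 142 CPM for the lower genes, while chow libraries spread up to 2499 CPM.

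**Figure D3:**
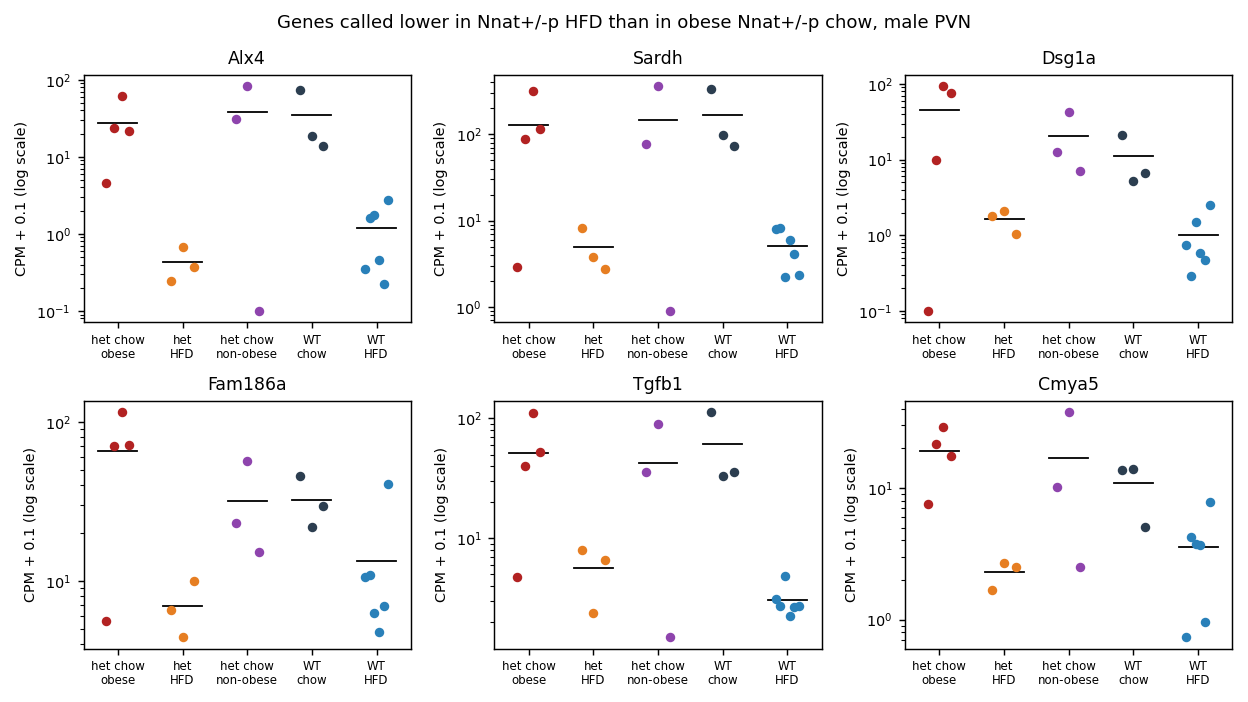
CPM + 0.1 on a log axis of 6 genes called lower on HFD, by group; dots, mice; lines, group means. In Alx4 the HFD values (0.143 to 0.574 CPM) lie below all 4 obese values (4.46 to 61.2 CPM), while in Sardh and Tgfb1 the obese replicate 16 falls into the HFD range.

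Arid2 and Nol8 were lower genes of solid level, named after their values were seen. Replicate 20 was again the highest obese library in both. Arid2, a subunit of a SWI/SNF chromatin remodeller, was at 38.7, 37.8 and 36.1 CPM on HFD and 59.2, 69.9, 108 and 57.0 CPM in obese chow (log2 -0.97 ± 0.24, adjusted p = 0.209). Nol8, a nucleolar protein, measured 21.5, 20.2 and 28.2 CPM and 46.4, 31.0, 69.7 and 45.6 CPM (log2 -1.04 ± 0.27, adjusted p = 0.242). In both the groups did not overlap. Arid2 was 40.0, 31.8 and 41.7 CPM in wild types on chow and 33.3 to 47.2 CPM on HFD, a log2 difference of 0.02 ± 0.22.

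The diet effect was then compared with that of wild types, which shares no library with it. In wild types too, diet and cohort cannot be told apart. Wild-type libraries held 5582716 to 8560199 counts on HFD and 3192351 to 6139659 on chow. Their mean receptor sums were 129 CPM on HFD and 496 CPM on chow. Whether signs shared by the genotypes come from diet, cohort or depth was not tested. In wild types, 251 genes (1.43%) were called, with 55 (0.313%) higher and 196 (1.12%) lower on HFD. At an adjusted p under 0.05 there were 26 (0.148%), and 1804 (10.3%) at an unadjusted p under 0.05, of which 723 (4.11%) were higher and 1081 (6.15%) lower. Of the 46 genes called in Nnat+/-p mice, 43 (93.5%) had the same sign in wild types, against 59.1% of all tested genes, and 25 were also called there. Those 25 were all lower, and made up 54.3% of the Nnat+/-p calls and 9.96% of the wild-type calls. Of the 5 higher genes, 4 had the same sign in wild types and 0 were called there by edgeR, where 0.313% of all tested genes were called higher. In the other direction, 175 of the 196 genes lower in wild types (89.3%) had a negative fold in Nnat+/-p mice, while 29 of the 55 higher genes (52.7%) had a positive one.

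The genes called with one sign in both comparisons, ranked by the larger of their p-values, were led by Alx4, Gm11825, Gm47791, Gm16638, Sardh, Gm25549, Dsg1a and Olfr411. Alx4 fell from 73.6, 18.5 and 13.6 CPM to 0.124 to 2.64 CPM in wild types on HFD (log2 -5.11 ± 0.82, adjusted p = 9.76e-04). Sardh fell from 330.0, 99.1 and 72.6 CPM to 2.14 to 8.06 CPM (log2 -5.04 ± 0.80, adjusted p = 9.09e-04). Olfr411 had no count in the 6 wild types on HFD and 32.2, 18.3 and 3.46 CPM on chow, at least 225-fold lower when pooled over mice. The pseudogene Gm11825 had no count on HFD in either genotype. Pooled over mice, it was at least 97.7-fold lower in Nnat+/-p and 196-fold lower in wild types. Its counts in the obese replicates 16, 17, 20 and 21 were 1, 54, 124 and 55, so replicate 16 nearly lacked it as well. Gm16638, an antisense RNA of Tmc3, was at 7.59, 9.91 and 4.70 CPM on HFD and 7.30, 107, 436 and 129 CPM in obese chow, and fell in wild types from 377, 108 and 53.5 CPM to 2.10 to 9.34 CPM. Gm47791 (0.143, 0 and 0 CPM against 0, 7.52, 58.6 and 14.5 CPM) and the small nuclear RNA Gm25549 (0, 0 and 0 CPM against 0.203, 2.57, 27.2 and 4.73 CPM) had the same shape. The wild-type count of 251 also rested on single libraries, being 1083 without replicate 15, 808 without 14, 112 without 13, 159 without 23, 162 without 25, 82 without 26, 103 without 27 and 109 without 28.

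**Figure D4:**
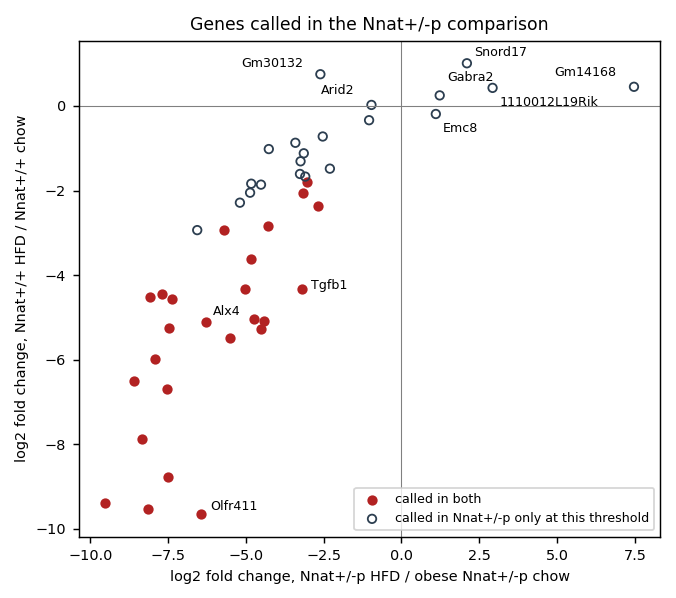
Log2 fold changes of the 46 genes called in Nnat+/-p mice (HFD over obese chow, x axis) against those in wild types (HFD over chow, y axis); filled, called in both; open, called in Nnat+/-p alone at this threshold. The 25 shared calls all lie in the lower left, and 3 genes (Emc8, Arid2 and Gm30132) have opposite signs.

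The 2 diet effects were then tested against each other as the difference of their fold changes. The chow mice were obese in Nnat+/-p and lean in wild types, so genotype and body weight cannot be told apart in this test. No gene was called (edgeR; 802 genes, 4.56%, at an unadjusted p under 0.05, with 321, 1.83%, positive and 481, 2.74%, negative), while DESeq2 without the low-count filter called 7 and edgeR without it 50. Leaving out 1 library gave 11 calls without replicate 13, 7 without 14, 2 without 15 and 1 without 24 or 30. The gene with the smallest p was Glp1r, the receptor for the satiety hormone GLP-1. It measured 13.7, 14.6 and 9.93 CPM in Nnat+/-p on HFD and 26.8, 18.9, 14.7 and 20.6 CPM in obese Nnat+/-p on chow, 9.00, 6.54 and 9.97 CPM in the non-obese, and 1.51, 0.213 and 2.18 CPM in wild types on chow. Wild types on HFD held 3.75 to 14.5 CPM. Thus wild types on HFD exceeded those on chow (log2 2.88 ± 0.54, adjusted p = 0.00898), whereas in Nnat+/-p the HFD mice lay below the obese mice without a call (log2 -0.67 ± 0.46, adjusted p = 0.811). The difference was -3.54 ± 0.71 (adjusted p = 0.319), and DESeq2 gave it an adjusted p of 0.00563.

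The other genes with the smallest p in this direction were Unc50, S100a10 and Ska2. S100a10, the annexin partner p11, measured 19.2, 20.0 and 14.5 CPM on HFD and 39.7, 22.7, 25.8 and 16.1 CPM in obese Nnat+/-p, and 10.1, 4.69 and 2.73 CPM in wild types on chow against 12.9 to 23.8 CPM on HFD (difference -2.25 ± 0.56). For Unc50 the difference was -2.55 ± 0.62 and for Ska2, a mitotic spindle protein, -3.04 ± 0.76. In the opposite direction stood Nrgn, Ethe1, Gda and Crim1. Ethe1, a mitochondrial sulphur dioxygenase, was at 3.72, 8.33 and 6.17 CPM on HFD and 1.01, 1.28, 3.27 and 1.67 CPM in obese Nnat+/-p, and at 15.1, 4.26 and 14.0 CPM in wild types on chow against 1.67 to 5.89 CPM on HFD (difference 3.43 ± 0.87). For Crim1 the difference was 1.53 ± 0.40. Nrgn and Gda are forebrain genes and were high in the wild type replicate 15, at 252 and 293 CPM. Their differences of 3.69 ± 0.84 and 2.04 ± 0.52 became 2.01 and 0.72 without that library. None of these 7 had an adjusted p under 0.8.

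Genes of PVN neurons, other cell types, feeding signals and metabolism were taken as 24 lists, which hold 428 tested genes. None of the 428 passed the adjusted threshold in the edgeR fit, while DESeq2 called 9, limma voom 11 and edgeR without the low-count filter 11. By edgeR, 7.01% were at an unadjusted p under 0.05, against 7.53% of all tested genes. Their median log2 fold change was 0.09, against -0.06 over all.

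Avp, Oxt, Crh and Trh, the main neuropeptide genes of the PVN, overlapped between the groups. Avp, the gene for vasopressin, was at 379, 213 and 179 CPM on HFD and 292, 469, 373 and 411 CPM in obese chow (log2 -0.59 ± 0.83, adjusted p = 0.937). Oxt, for oxytocin, was at 988, 408 and 416 CPM and 392, 585, 220.2 and 317 CPM (log2 0.67 ± 0.89, adjusted p = 0.927). Crh, which drives the pituitary stress axis, measured 66.7, 65.3 and 64.1 CPM and 76.8, 53.7, 30.8 and 62.8 CPM (log2 0.22 ± 0.55). Trh, which drives the thyroid axis, measured 142, 127 and 130.2 CPM and 198, 151, 116 and 121 CPM (log2 -0.14 ± 0.42). The SE of Avp and Oxt included the spread of replicates 15 and 24, which nearly lack both. Without those libraries, a choice made after seeing the data, the log2 difference was -0.57 ± 0.32 for Avp and 0.69 ± 0.35 for Oxt, and neither was called. Sst, for the inhibitory peptide somatostatin, was at 103, 71.1 and 41.3 CPM on HFD and 2.03, 39.8, 10.1 and 37.2 CPM in obese chow. These groups did not overlap, and the difference of 1.68 ± 0.52 had an unadjusted p of 0.00279 by edgeR but was not called (adjusted p = 0.409). Limma voom called Sst (adjusted p = 0.199), as did edgeR without the low-count filter (9.74e-07), without replicate 17 (0.229) and without replicates 15 and 24 (0.182). The other 14 alternatives did not. In counts not scaled for depth, Sst had 156, 285 and 476 in wild types on chow and 10, 217, 31 and 134 in obese chow.

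Among 19 appetite receptors, 1 (5.26%) had an unadjusted p under 0.05, below the 7.53% of all tested genes. Ntsr1, a neurotensin receptor, stood at 1.86, 4.02 and 3.22 CPM on HFD and 0.203, 0.550, 1.64 and 0.278 CPM in obese chow (log2 2.22 ± 0.93, adjusted p = 0.591), a level near the detection limit. Mc4r, the melanocortin receptor through which the PVN restrains feeding, was 4.30, 14.4 and 1.88 CPM and 8.31, 13.4, 4.91 and 1.95 CPM (log2 -0.08 ± 0.73). The members of highest mean CPM, Ntrk2, the BDNF receptor (489.8, 383 and 431 CPM against 429.8, 509.7, 282 and 387 CPM), and Cnr1, the cannabinoid receptor (45.7, 80.7 and 50.9 CPM against 38.5, 65.7, 61.5 and 65.0 CPM), overlapped. In the leptin and insulin list of 11 genes, none was called, with Igf1r and Pik3r1 at log2 0.12 and 0.09.

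Of 11 prohormone genes, 1 (9.09%) had an unadjusted p under 0.05, near the 7.53% of all tested genes. Vgf, the precursor of secreted neuropeptides, was 163, 158 and 108 CPM on HFD and 172, 218, 206 and 242 CPM in obese chow, each HFD value below each obese one (log2 -0.55 ± 0.21, adjusted p = 0.570). DESeq2 (adjusted p = 0.145) and limma voom (adjusted p = 0.134) called Vgf, and the other 16 alternative fits did not. Wild types had 62.8, 109 and 89.1 CPM on chow and 89.1 to 134 CPM on HFD. The members of highest mean CPM, Scg2 (854, 915 and 792 CPM against 1071, 918, 692 and 895 CPM) and Cpe (644, 498 and 572 CPM against 415, 695, 401 and 583 CPM), overlapped. Gfap, the filament of astrocytes, was 85.6, 97.8 and 59.3 CPM and 122, 189, 96.5 and 119 CPM (log2 -0.70 ± 0.28, adjusted p = 0.577), while the astrocyte transporters Slc1a2 and Slc1a3 had log2 differences of 0.07 and 0.27.

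Immediate early genes, the transcripts that neurons induce within minutes of firing, had negative folds, although none was called by the edgeR fit used here. DESeq2, with its own filtering in place of the low-count filter, called 4 of the 13, Egr1, Nr4a1, Fosb and Arc (adjusted p = 0.112, 0.0911, 0.231 and 0.184). Limma voom called 2, and edgeR without the low-count filter 3. In the main comparison all 13 tested members had a negative fold, as did 54.6% of all tested genes, with a median of -0.77. An unadjusted p under 0.05 with a negative sign was found in 4 of 13 (30.8%), Egr1, Nr4a1, Fosb and Arc, against 5.52% of all tested genes. In wild types the median was 0.09, and 5 of 13 had the same sign as in Nnat+/-p mice. There, 2 of 13 were lower on HFD at an unadjusted p under 0.05 by edgeR, against 6.15% of all tested genes, and 0 were higher.

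Nr4a1, Fosb and Arc are named for their p, after the values were seen. Egr1, a zinc finger factor, was at 12.5, 16.8 and 22.8 CPM on HFD and 72.8, 32.1, 49.7 and 52.3 CPM in obese chow (log2 -1.57 ± 0.46, adjusted p = 0.356). In counts not scaled for depth, Egr1 had 87, 117 and 170 on HFD and 359, 175, 152 and 188 in obese chow. Outside the comparison these counts ran from 101 to 780 in wild types on HFD and from 88 to 456 in non-obese Nnat+/-p mice. Nr4a1, an orphan nuclear receptor, was at 6.59, 6.60 and 4.83 CPM and 53.1, 8.07, 12.4 and 18.6 CPM (log2 -1.94 ± 0.54, adjusted p = 0.294). In Arc, a protein of synaptic plasticity, the values were 1.86, 3.45 and 5.50 CPM and 15.2, 8.99, 12.4 and 15.8 CPM (log2 -1.85 ± 0.63, adjusted p = 0.532). These 3 genes did not overlap between the groups, which 2.88% of all genes met in this direction. Fosb, a partner of Jun in AP-1, overlapped through replicate 17, at 1.72, 0.861 and 3.76 CPM and 13.2, 0.917, 15.4 and 18.6 CPM (log2 -2.48 ± 0.89, adjusted p = 0.547). Fos itself had 13.0, 20.2 and 23.6 CPM and 48.2, 13.4, 34.0 and 33.6 CPM (log2 -0.77 ± 0.48), and Jun 79.2, 93.9 and 60.0 CPM and 112, 67.7, 80.2 and 92.6 CPM (log2 -0.18 ± 0.29). Replicate 16 held the highest Nr4a1 and Egr1, and without it the log2 difference was -1.11 for Nr4a1 and -1.36 for Egr1, with a list median of -0.52 and 11 of 13 members negative. With the receptor sum as a covariate the median was -0.64 and 2 of 13 kept an unadjusted p under 0.05.

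Many of these genes are induced by CREB, which binds the cyclic AMP response element. The 250 bases before the start of Nr4a1 and Fosb (RefSeq, GRCm38.p6; chr15:101266596-101266845, plus strand, and chr7:19310046-19310295, minus strand) are shown because both genes had negative folds at an unadjusted p under 0.05 and hold the element's half-site. Capitals mark the half-site TGACG or its reverse complement CGTCA, 5′ to 3′ on the gene's strand.
Nr4a1: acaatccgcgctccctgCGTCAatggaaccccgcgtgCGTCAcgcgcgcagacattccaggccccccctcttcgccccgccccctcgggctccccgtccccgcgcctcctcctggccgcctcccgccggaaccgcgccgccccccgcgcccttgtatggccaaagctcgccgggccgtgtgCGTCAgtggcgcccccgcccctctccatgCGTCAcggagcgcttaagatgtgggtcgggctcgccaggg
Fosb: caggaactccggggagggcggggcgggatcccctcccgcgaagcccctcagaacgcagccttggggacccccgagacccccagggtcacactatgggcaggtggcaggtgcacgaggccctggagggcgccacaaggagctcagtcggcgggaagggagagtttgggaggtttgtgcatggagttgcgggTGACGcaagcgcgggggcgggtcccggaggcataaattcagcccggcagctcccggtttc
Nr4a1 held 4 half-sites and Fosb 1. Among 27025 such windows, 17.9% held at least 1 and 0.152% held 4 or more. As both genes were chosen partly for holding a half-site, the 17.9% is no test of them. Of 9 listed genes with a window, 6 had a half-site. The full element was in neither printed window, and among the 9 only in that of Dusp1. The CArG box, another motif searched for, was in 0 of the 9. Egr1 and Arc, which also had an unadjusted p under 0.05 by edgeR, had no window. These are matches of letters, not measured binding.

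**Figure D5:**
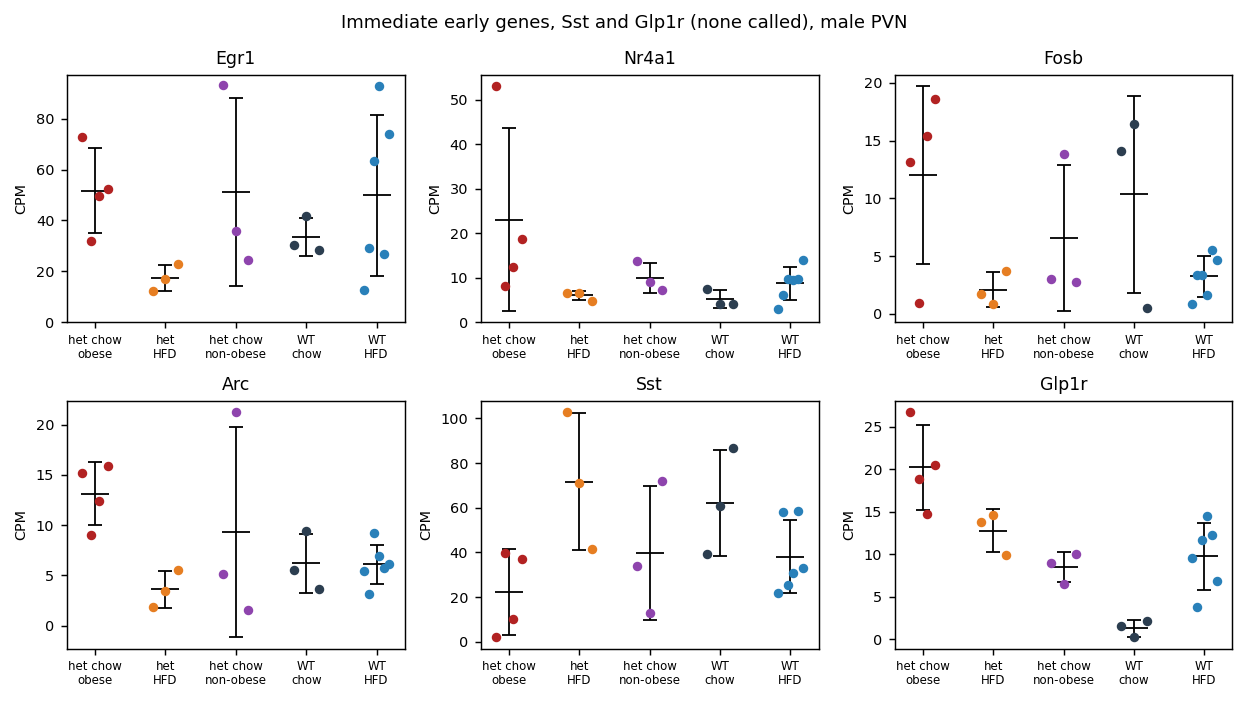
CPM of 4 immediate early genes, Sst and Glp1r by group, none of them called by the edgeR fit in Nnat+/-p mice; dots, mice; bars, mean ± SD. Egr1 lies at 12.5 to 22.8 CPM on HFD and 32.1 to 72.8 CPM in obese chow, and Glp1r at 0.213 to 2.18 CPM in wild types on chow.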

How the data were processed

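PVN tissue was laser-captured, and stranded libraries were made from low-input total RNA, with 1 library per mouse. The authors aligned reads with STAR 2.5.0a to GRCm38, per the submitters' processing notes, and deposited raw read counts per Ensembl gene, without normalization. The counting tool, its annotation and strand setting are not given in the sources used here. Of 53379 gene identifiers, 53274 were matched to GENCODE release M21 for symbols and positions.

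Counts of the 19 labelled male PVN libraries (5 groups) were fitted together with edgeR 4.0.16 in R 4.3.3: the filterByExpr filter was used (minimum count, 10), libraries were scaled by TMM and genes tested by the quasi-likelihood test with Benjamini-Hochberg adjustment over the 17576 genes kept. A gene was called at an adjusted p under 0.25. Single quantities were compared by exact two-sided permutation of 35 splits. Totals ran from 2268021 to 8560199 counts, so that genes of few counts are measured with the least precision. The labels do not give litters, so p-values measure the spread between these mice. The library of replicate 32, whose labels name another region than its table does, was left out. DESeq2 1.42.0, limma 3.58.1, other filters, scalings and covariates, and omission of each library were tried. The script was tested on simulated data.

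Named genes were Nnat, Blcap, up to 12 called genes with the smallest p per direction with an assigned symbol (where fewer were called, those called and the next by p up to 6), the 8 shared calls of smallest larger p, 4 genes per direction in the difference test, the 2 members of highest mean CPM of each list, and Avp, Oxt, Crh, Trh, Sst, Glp1r, Mc4r, Ntsr1, Vgf and Gfap. Some genes that this rule names are not reported here. The comparison, genes and lists were chosen with earlier results of these data known.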

Additional observations from a re-analysis of the deposited data

Results flagged for a closer look

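In groups of 4 or 6 mice, the highest or lowest value of a named gene was tested for its distance from the rest by Dixon's ratio. Of 88 groups, 9 passed, where chance flags about 1 in 20. Among the obese Nnat+/-p mice on chow, replicate 16 had Gabra2 at 20.9 CPM, and the other 3 had 64.6 to 72.3 CPM. Replicate 20 had 1110012L19Rik at 2.29 CPM (others 0.550 to 0.608 CPM) and Gm25549 at 27.2 CPM (others 0.203 to 4.73 CPM).

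Among the wild types on HFD, replicate 28 was high in 3 genes, with C2 at 21.9 CPM (others 1.86 to 6.59 CPM), Fam186a at 40.2 CPM (others 4.64 to 10.7 CPM) and Snord17 at 88.5 CPM (others 18.4 to 36.0 CPM). Tgfb1 was 4.75 CPM in replicate 25 (others 2.14 to 3.04 CPM). Gm25549 was 0.127 CPM in replicate 23 and Gm47791 0.119 CPM in replicate 26, each with the other 5 mice at 0.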

How the results depend on the processing

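The 46 calls in Nnat+/-p mice became 0 at an adjusted p under 0.05 and 422 with DESeq2, whose own filtering took the place of the low-count filter. They became 81 with body weight as a covariate, and 0 with counts thinned to the smallest total. Under thinning the median log2 fold change of the 41 lower genes was -4.92, against -4.83. The calls numbered 372 with limma voom, 258 with edgeR without the filter and 0 with the receptor sum as a covariate. There were 126 without replicates 15 and 24, and 1 without replicates 24 and 30, whose labelled weights are uncertain. Leaving out 1 library gave 0 to 130. The 251 wild-type calls became 26, 472 and 754 under the first 3 of these, 1134 without the filter, 15 with the receptor sum, 974 without replicates 15 and 24, and 82 to 1083 with 1 library left out. The difference test went from 0 calls to 7 with DESeq2 without the filter, 50 with edgeR without it, 6 without replicates 15 and 24, 5 without replicates 24 and 30, and 0 to 11 with 1 library left out. The receptor sum and the omission of replicates 15 and 24 were chosen after seeing the data. The cause of these changes was not tested.

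Over 998 alternative values of the named genes, 765 kept direction and side of the threshold, 187 kept direction but were no longer called, 39 became called and 7 changed sign, all in genes that were not called: Blcap (-0.050 with the receptor sum), Mc4r (0.28 with voom, and -1.20 to 0.42 with 1 library left out, with 0.19 and 0.39 without replicates 29 and 31) and Trh (0.015 with voom, and -0.25 to 0.041 with 1 library left out). No paired analysis was possible because the replicate numbers run through the series and none is shared between groups.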

Other observations

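Genes of protein synthesis and energy use were not called by edgeR in Nnat+/-p mice. Of 74 cytosolic ribosomal protein genes, 6 had an unadjusted p under 0.05 by edgeR, all higher on HFD (8.11%, against 2% of all tested genes in that direction and 7.53% in either), with a median log2 fold change of 0.26 (0.36 in wild types). Of 76 nuclear respiratory chain genes, 2 were higher at that level, with a median of 0.17. Fasn, which makes fatty acids, had a log2 fold change of 0.27, and Hmgcs1 and Srebf2 of cholesterol synthesis had 0.10 and 0.01. Rn7sk, a nuclear RNA that restrains transcription elongation, had 0.94 (adjusted p = 0.547).

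Among cell type markers, edgeR called none. Log2 fold changes of members of highest mean CPM were, for neurons, 0.12 in Map2 and 0.04 in Snap25 and, for oligodendrocytes, -0.10 in Mbp. In microglia Csf1r had 0.37, and in vessels Flt1 had 0.11 and Rgs5 -0.01.

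The library of replicate 32, which entered no comparison, was scaled to CPM by its own total. It had Nnat at 4.76, Avp at 277, Oxt at 584, Sim1 at 159, Agrp at 0.816, Pomc at 2.45 and Npy at 0.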
